A study of Homo sapiens with 151 samples.

Results

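Of 12976 CpG-rich promoters of protein-coding genes in HepG2, a human liver cancer cell line, 1746 had no peak in any of the preferred ChIP-seq peak lists of this data set. These 1746 promoters, called unbound in what follows, were 13.5% of the CpG-rich coding promoters (95% Wilson interval 12.9 to 14.1, counting error only) and belonged to 20033 coding promoters in all. A promoter here is the canonical TSS of a GENCODE gene with 500 bp on either side, and it is CpG-rich when its GC share is over 0.5 and its observed over expected CpG, the number of CpG dinucleotides relative to that given by its C and G content, is over 0.6. The members were thus selected on the peak lists themselves, and the absence of a peak is the criterion and not a finding. Each list comes from 1 DAP (DNA-associated protein) carrying a FLAG tag and precipitated with one monoclonal anti-FLAG antibody. The preferred lists cover TFs (transcription factors) and 15 non-TF DAPs, and 6 further non-preferred lists (EP300, GPBP1L1, TSC22D2, TUT4, ZNF431 and ZZZ3) were not used by the criterion. No DAP has a second list, and sequencing depth is unknown. The preferred lists hold 195 to 61748 peaks with a median of 8680, so a promoter without a peak here may have one in an experiment that is not analysed here. Transcription, DNA methylation and chromatin accessibility were also not analysed here.

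CpG islands are stretches of DNA in which CpG dinucleotides have been kept, mostly because they stay unmethylated in the germline, and most human housekeeping genes start in one. Such promoters are usually open and occupied by many factors whether or not a gene is used at a high level. Another class of island promoters belongs to genes of embryonic patterning and of neurons, which Polycomb proteins commonly keep silent in other tissues, and others belong to germline genes and to genes that gain DNA methylation in tumours. Promoters of olfactory receptors and of most liver-specific genes carry few CpG.

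Stretches of 200 bases upstream of the TSS illustrate the base composition of the unbound promoters. Shown are 5 members from different gene groups, each the named member of its group with the most CpG among those whose stretch holds no annotated exon, and then 1 bound promoter for comparison. Sequence is hg38 on the strand of the gene, 5′ to 3′, with CpG dinucleotides in capitals. NKX6-2, a homeodomain factor of the neural tube (chr10:132786148-132786347, minus strand), held 34 CpG, and GABBR2, a subunit of the GABA-B receptor (chr9:98708936-98709135, minus), held 30. PIWIL1, a germline Piwi protein (chr12:130337687-130337886, plus), held 19, and ZNF518B, a zinc finger gene (chr4:10457427-10457626, minus), held 23. ZIC1, a zinc finger factor of the neural plate that is often methylated in tumours (chr3:147409165-147409364, plus), held 23. PGK1, a glycolytic enzyme (chrX:78104048-78104247, plus), held 24 and is the housekeeping gene with the most lists among those with an exon-free stretch, with peaks of 41 lists.
NKX6-2: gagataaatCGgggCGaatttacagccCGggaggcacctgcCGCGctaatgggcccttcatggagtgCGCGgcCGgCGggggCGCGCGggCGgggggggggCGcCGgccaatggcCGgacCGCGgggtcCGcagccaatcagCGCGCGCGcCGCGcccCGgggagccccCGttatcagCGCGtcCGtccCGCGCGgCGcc
GABBR2: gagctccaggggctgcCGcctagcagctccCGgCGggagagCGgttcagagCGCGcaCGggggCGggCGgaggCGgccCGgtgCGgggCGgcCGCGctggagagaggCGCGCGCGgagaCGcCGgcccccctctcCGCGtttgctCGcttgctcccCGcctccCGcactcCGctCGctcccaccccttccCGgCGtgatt
PIWIL1: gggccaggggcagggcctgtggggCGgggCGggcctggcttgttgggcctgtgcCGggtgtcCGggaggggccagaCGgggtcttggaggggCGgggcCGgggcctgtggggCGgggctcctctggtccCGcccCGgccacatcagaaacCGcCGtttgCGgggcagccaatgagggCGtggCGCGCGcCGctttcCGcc
ZNF518B: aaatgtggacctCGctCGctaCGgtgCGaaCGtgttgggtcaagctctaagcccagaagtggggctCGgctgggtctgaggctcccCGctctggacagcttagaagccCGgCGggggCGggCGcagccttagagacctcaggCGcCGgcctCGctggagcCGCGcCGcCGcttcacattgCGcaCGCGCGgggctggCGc
ZIC1: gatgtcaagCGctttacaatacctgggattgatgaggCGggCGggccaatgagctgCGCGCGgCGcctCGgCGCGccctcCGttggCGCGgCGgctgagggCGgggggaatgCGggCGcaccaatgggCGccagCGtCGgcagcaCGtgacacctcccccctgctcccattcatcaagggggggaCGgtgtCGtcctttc
PGK1: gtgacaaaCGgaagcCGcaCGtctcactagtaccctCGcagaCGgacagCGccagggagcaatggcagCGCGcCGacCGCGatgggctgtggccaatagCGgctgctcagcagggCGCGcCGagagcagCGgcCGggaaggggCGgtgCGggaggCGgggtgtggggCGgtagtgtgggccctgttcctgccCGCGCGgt
The bound PGK1 stretch, with 24 CpG, lies within the 19 to 34 of the unbound ones.

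The number of lists with a peak separated CpG-rich promoters into a small group with none and a large group with many. Besides the 1746 promoters with 0 lists, 381 had exactly 1, 684 had 2 to 5, 586 had 6 to 10, 1202 had 11 to 20 and 1555 had 21 to 30. Peaks of 31 or more lists, which is 25% of the preferred lists, lay at 52.6% of CpG-rich promoters, 4701 of them with 31 to 60 lists and 2121 with 61 or more. Having no peak was thus more common than having 1 to 5. CpG-poor coding promoters differed, as 66.3% of the 7057 had no peak, or 4676 promoters. These CpG-poor unbound promoters serve below as the group most like the unbound CpG-rich promoters in their peaks.

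**Figure D1:**
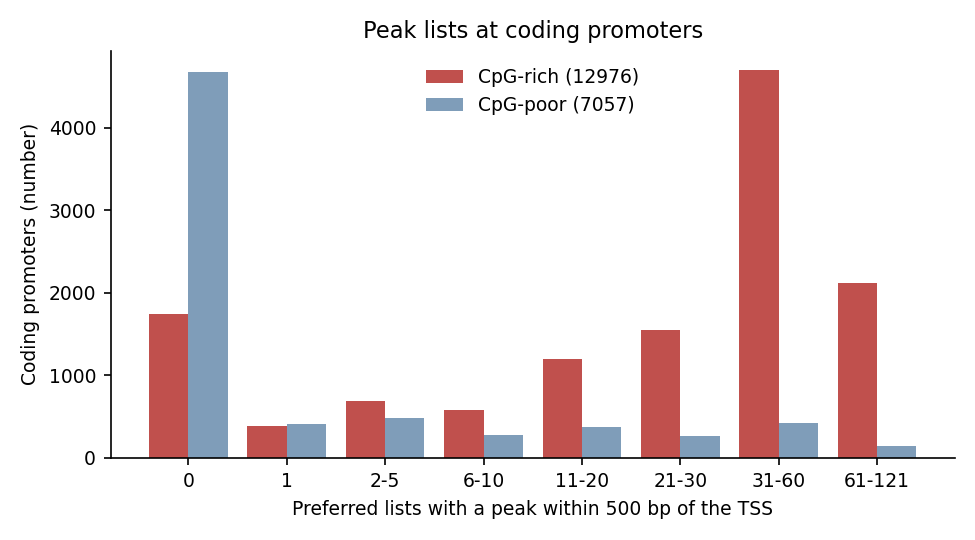
Number of coding promoters (vertical axis) by the number of preferred lists with a peak within 500 bp of the TSS (horizontal axis), for CpG-rich and CpG-poor promoters. CpG-rich bars fall from 1746 at 0 lists to 381 at 1 list and reach 4701 at 31 to 60 lists, while 4676 CpG-poor promoters sit at 0.

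Gene families of embryonic patterning, neurons and the germline held the unbound promoters at shares far above the 13.5% of all CpG-rich coding promoters. In 20 of the 24 families examined, the 95% Wilson interval lay above that share, in 2 it spanned it, and in 2 it lay below. Together the families held 607 members among 2041 CpG-rich promoters (29.7%), and the genes of no family held 1139 among 10935 (10.4%). The families were put together by gene symbol with earlier results of these lists known, so their shares are a description.

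Homeobox and related genes, most of which encode homeodomain factors of body axis and organ formation, supplied 87 members from 164 CpG-rich promoters (53.0%, interval 45.4 to 60.5). The 87 include the PAX genes PAX1 and PAX9, and they count SHOX on both X and Y. Among the HOX genes, 22 of 32 CpG-rich promoters were unbound, and the longest run of neighbouring coding genes that were all CpG-rich and unbound was HOXD13, HOXD12, HOXD11, HOXD10, HOXD9, HOXD8 and HOXD4 on chromosome 2 (TSS positions 176092721 to 176151550). The members with the most CpG in this family were NKX6-2, with 159 in the window and an observed over expected ratio of 1.11, and EN2, a factor of the midbrain and hindbrain, with 154 and 1.05. The nearest peak was 41250 bp from NKX6-2, in the ZNF827 list alone, and 8464 bp from EN2, in the POU2F1 and ZSCAN25 lists. POU3F4, a POU factor of the inner ear and brain on chromosome X, had its nearest peak 1226580 bp away. Of the 77 homeobox promoters with a peak, 31 had 1 to 5 lists and 19 had 31 or more.

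Other families of developmental transcription factors had shares from 39.0% to 50%, against 53.0% for the homeobox genes. Among them, SOX promoters were unbound in 7 of 14 cases, T-box in 6 of 12 (25% when no annotated TSS of the gene may have a peak), bHLH in 20 of 45, forkhead in 16 of 41 and GATA, ZIC and related factors in 9 of 23. SOX1, a factor of neural progenitors, had 118 CpG in its window, and its nearest peak lay 11656 bp downstream in the ZNF646 list. TBXT, the mesoderm factor brachyury, had 96 CpG and its nearest peak at 61268 bp. TWIST1, a mesenchymal bHLH factor, and its neighbour FERD3L had theirs at 574790 and 547005 bp, both from the ZNF850 list. GLI3, a factor of hedgehog signalling, had its nearest peak at 144864 bp. Together with the homeobox genes, the 6 families held 145 members among 299 CpG-rich promoters (48.5%, interval 42.9 to 54.1).

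Genes of neuronal signalling were unbound about as often, with 148 of 312 CpG-rich promoters of channels, neurotransmitter receptors, axon guidance and synapse genes (47.4%, interval 42.0 to 53.0). These groups were put together by symbol, so not all their genes are neuronal (KCNQ1, SLC6A20 and LRRC43 are among them). The share was 58.4% for synapse and neuroendocrine genes (52 of 89), 48.2% for neurotransmitter receptors (27 of 56), 47.6% for potassium channels (30 of 63), 42.3% for calcium and sodium channels (11 of 26) and 35.9% for axon guidance genes (28 of 78). CACNA1H, a T-type calcium channel, had 166 CpG and a GC content of 84.1%, the highest among the members, and its nearest peak was 1489 bp downstream with 8 lists. HCN2, a channel of the pacemaker current, had 160 CpG and KCNJ4, an inward rectifier, had 159. Peaks came close to the latter pair, at 595 bp from HCN2 with 5 lists and at 683 bp from KCNJ4 with SALL1 alone. HTR2C, a serotonin receptor, had its nearest peak 757344 bp away, GRM7, a metabotropic glutamate receptor, 369957 bp away, and RIMS1, of the presynaptic active zone, 525514 bp away. Even where a potassium channel promoter had a peak, few lists held it, since 20 of the 33 such promoters had 1 to 5 lists and their median was 4.

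Ligands, matrix and adhesion genes formed another set. Genes of WNT signalling, which include WNT, RSPO, SFRP and DKK genes and WIF1, had 14 unbound promoters of 26. The BMP, TGF-beta and FGF group had 14 of 43, not all of them ligands (FSTL1, FSTL4, CHRDL2, FGF13 and FGF14 are among them). Genes of the extracellular matrix had 43 of 93. Protocadherins and cadherins had 19 of 39, among them 4 of the 5 CpG-rich clustered protocadherins (PCDHAC1, PCDHAC2, PCDHGB6 and PCDHGC4). WNT9A had 150 CpG and a peak with 7 lists 751 bp downstream, and WNT3A had 126 and a peak of the ZNF850 list 2001 bp upstream. FGF8, a ligand of limb and brain patterning, had a ZNF865 peak 576 bp upstream. FBN2, a fibrillin, had no peak within 336370 bp, and ADAMTS19, a matrix protease, none within 364572 bp. Receptors coupled to G proteins outside the transmitter receptors had 43 unbound of 113.

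Germline and cancer-testis genes had the highest share among families with more than 5 CpG-rich promoters, 39 of 62 (62.9%, interval 50.5 to 73.8). PIWIL1 lay 140483 bp and TDRD5, a Tudor protein of the piRNA pathway, 122875 bp from the nearest peak. Their median number of CpG per window was 62, fewer than the 87 of homeobox members. Only 4 of the 415 olfactory receptor genes were CpG-rich, and 3 of these were unbound.

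Zinc finger genes outside these groups, named ZNF, ZFP, ZSCAN or ZKSCAN, and solute carriers were near the background. Of 438 zinc finger promoters 55 were unbound (12.6%, interval 9.78 to 15.99), and of 228 solute carrier promoters 30 (13.2%, interval 9.37 to 18.2). On chromosome 19, where many KRAB zinc finger genes lie in tandem, 31 of 195 were unbound (15.9%), with ZNF667, ZNF471, ZFP28 and ZNF470 in one run. ZNF98 and ZNF492, both there, had their nearest peaks 569933 and 615437 bp away. Ribosomal protein genes and subunits of the respiratory chain and proteasome stood at the other end, with 3 unbound of 148 (2.03%, interval 0.692 to 5.79) and 2 of 133 (1.504%, interval 0.413 to 5.32). Bound ribosomal promoters had a median of 56 lists.

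**Figure D2:**
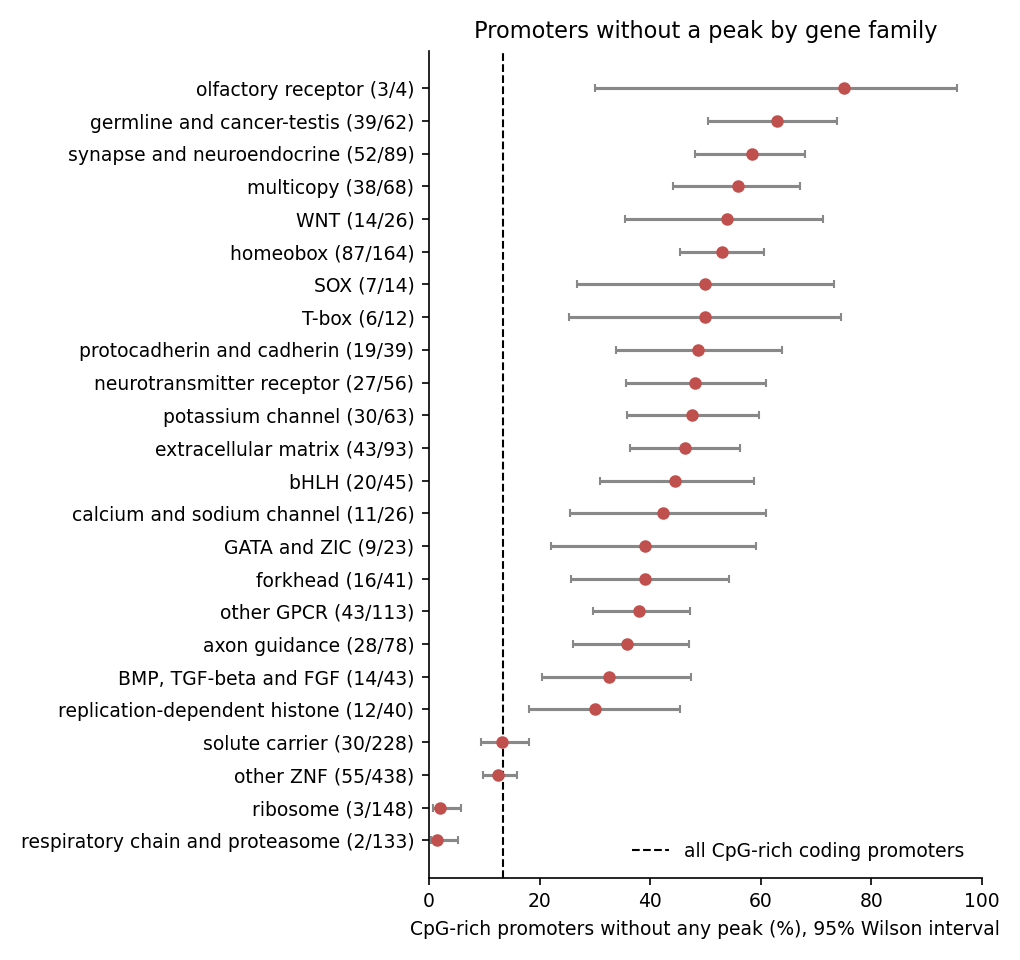
Percent of CpG-rich promoters without any peak (horizontal axis) in each of 24 gene families (vertical axis, with unbound and CpG-rich promoters in parentheses). Points are shares and bars are 95% Wilson intervals, and the dashed line is the share over all CpG-rich coding promoters, 13.5%; germline genes reach 62.9% and the respiratory chain and proteasome 1.504%.

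Gene lists of known behaviour were set beside the same share of 13.5%. None of 32 CpG-rich housekeeping promoters and none of 20 immediate early promoters were unbound. Taking 0 of n to allow up to 3 of n, these counts allow shares of up to 9.38% and 15%. A list of 34 hepatocyte genes, of which 28 were CpG-poor, had 0 unbound among 6 CpG-rich promoters, which allows up to 50.0%. The hepatocyte and immediate early bounds lie above 13.5%, so neither list can be told from the share over all at this size. The housekeeping bound lies below it, but the same peaks set the criterion, so these shares are a description. Among genes often methylated in tumours, 15 of 37 CpG-rich promoters were unbound (40.5%), and the median over the 37 was 1 list. Among these were the WNT antagonists SFRP1, SFRP2, WIF1 and DKK3, the homeobox genes HOXA9 and SHOX2, the factors ZIC1 and TWIST1, the retinoic acid receptor RARB, the glutathione transferase GSTP1, the Ras pathway gene RASSF1, the filament protein VIM, the protease inhibitor TFPI2 and the protocadherin PCDH8. The nearest peak lay 1639 bp upstream of GSTP1 with 5 lists, 26025 bp upstream of VIM with 68 lists and 1801 bp upstream of PCDH8 with 63 lists. Methylation of these promoters in HepG2 was not measured here. Of 20 genes of cholesterol synthesis and uptake, INSIG1, which retains the sterol sensor SCAP in the endoplasmic reticulum, was the single unbound one. Its window (chr7:155297378-155298378) had 141 CpG, the nearest peak was a SALL1 peak 27539 bp upstream, and no peak lay at another annotated TSS of the gene.

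The unbound CpG-rich promoters lay a median of 12360.5 bp from the nearest peak of any preferred list, measured from the TSS to the edge of the peak (quartiles 2966 and 52373 bp). The median for CpG-poor unbound promoters was 15685.5 bp, and the CpG-rich median was the smaller one in 14 of 22 autosomes. A peak lay within 1000 bp of 166 members (9.51%), within 5000 bp of 570 (32.6%) and within 10000 bp of 792 (45.4%). In 242 (13.9%) it was more than 100000 bp away, and in 25 more than 1000000 bp away. Among these 25 are copies on the pseudoautosomal parts of Y and repeated genes such as PRR20A to PRR20E, both described below. Within 1000 bp the CpG-poor group had 5.05%, and beyond 100000 bp it had 15.2%. The nearest peak was downstream of the TSS in 50.9% of members, inside the same gene in 39.2% and within 500 bp of the canonical TSS of a coding or lncRNA gene in 14.3%. In bins of 500 bp, 5.78% of members had a peak in the downstream bin next to the window and 4.52% in the upstream one. The share was 8.88% between 1000 and 1500 bp downstream and 5.38% in the farthest downstream bin at 10000 bp. The criterion itself lowers the bins next to the window, since a peak that reaches the window excludes the promoter. CpG-poor unbound promoters had 2.59%, 4.77% and 6.09% in the same 3 downstream bins.

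Most of these nearest peaks were held by few factors. A single list held the nearest peak of 911 members (52.2%, against 50.5% of CpG-poor unbound promoters), and 31 or more lists overlapped it for 52 (2.98%). SALL1, a zinc finger factor with the longest list, was among the lists at the nearest peak of 617 members (35.3%), ZBTB12 of 510 and ZNF865 of 393. A nearest peak can belong to several lists, so these shares of members add up to more than all of them. The shares of CpG-poor unbound promoters were 34.7% for SALL1, 32.8% for ZBTB12 and 17.4% for ZNF865, against 35.3%, 29.2% and 22.5% of members. These lists hold 4.38%, 4.08% and 1.61% of all preferred peaks.

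**Figure D3:**
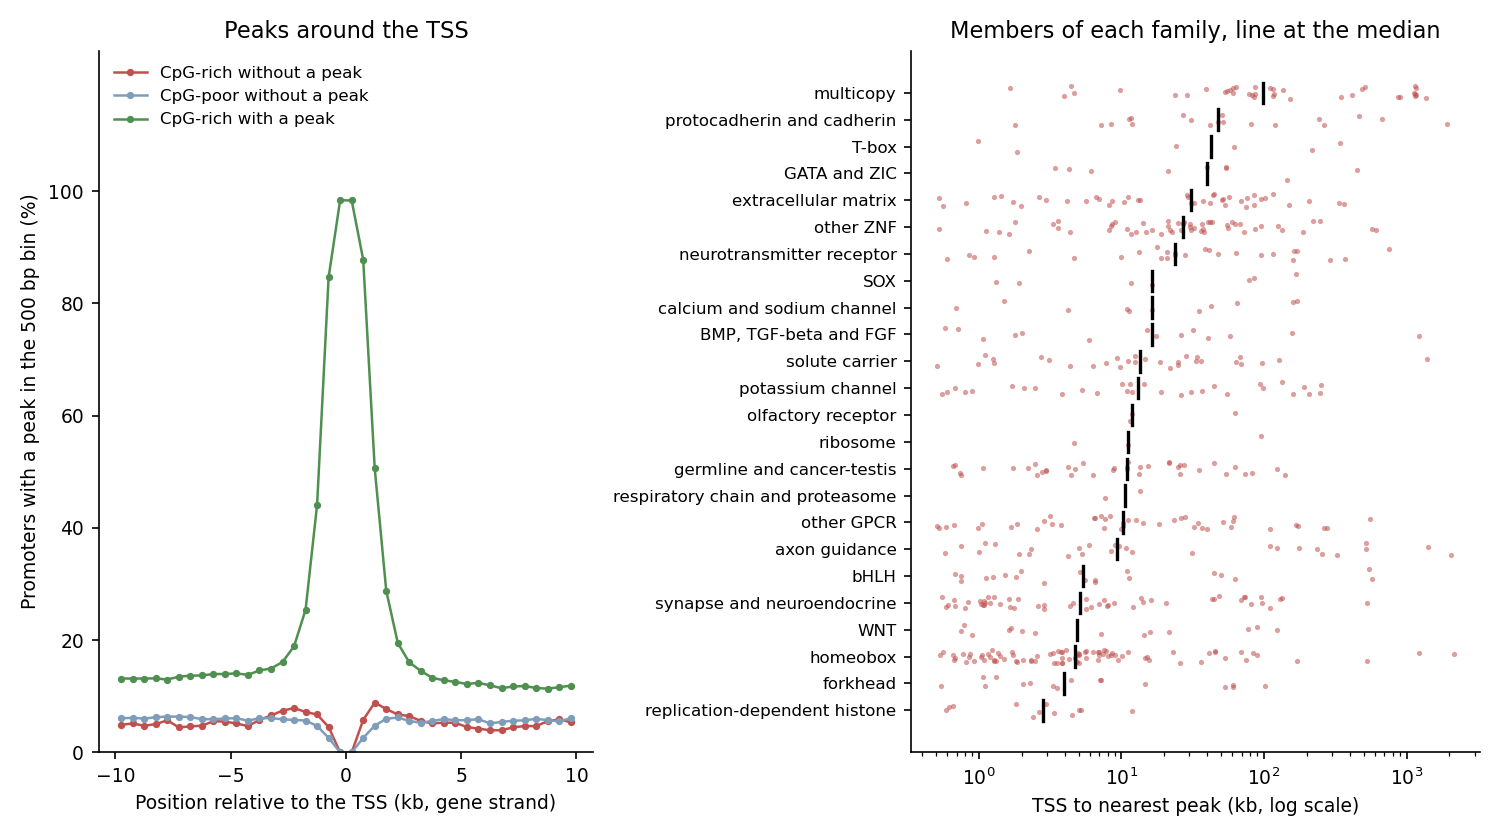
Left, share of promoters in percent (vertical axis) that had a peak in each 500 bp bin around the TSS (horizontal axis, kb along the gene strand) for 3 groups of promoters. Unbound CpG-rich promoters reach 8.88% between 1 and 1.5 kb downstream, against 5.78% in the downstream bin next to their window and 5.38% in the last bin. The criterion itself lowers the bins next to the window in both unbound groups. Right, distance from the TSS to the nearest peak (horizontal axis, kb on a log scale) for each unbound CpG-rich promoter of 24 families, with a line at the median, from 2795 bp for histones to 98423 bp for multicopy genes.

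Distances differed between families. The median was 2795 bp for replication-dependent histones, 3961.5 bp for forkhead genes, 4744 bp for homeobox genes, 4855 bp for WNT genes and 5077.5 bp for synapse genes. It was 23798 bp for neurotransmitter receptors, 27148 bp for zinc finger genes, 30785 bp for extracellular matrix genes and 47559 bp for protocadherins and cadherins. Of the homeobox members 49 of 87 had a peak within 5000 bp, while 1 of the 19 protocadherin and cadherin members did.

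At the border of the criterion, the closest peaks outside the window lay 503 bp from EPB41L4A with 8 lists, 507 bp from SLC35E4 with 3 and 508 bp from REPS2 with ZBTB12 alone. Among bound promoters, the window of SNAP25 was touched by 1 bp of a peak, that of DOCK11 by 1 bp and that of PEX11G by 6 bp, each from 1 list. In all, 55 members had a peak within 600 bp, and 50 bound promoters had no overlap of 100 bp or more. On the CpG side, ZNF98 was just inside with an observed over expected ratio of 0.602, and ROPN1B, also without a peak, was just outside with 0.5999.

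An alternative start site carried peaks in part of the genes. Of the members, 1204 (69.0%) had another annotated TSS more than 500 bp from the canonical one, and in 312 a peak lay within 500 bp of such a TSS, or 25.9% of these 1204. Among the CpG-poor unbound promoters, 2400 (51.3%) had another TSS, and 648 or 27.0% of them had a peak there. The bound CpG-rich promoters had 57.7%. Peaks of 31 or more lists lay there in 43 of the 1746 members (2.46%). RASSF1 is one of them, with 59 lists at another TSS, as are the transporter gene SLC45A4 with 72 and ADAM11 with 51. LEF1, a factor of WNT signalling whose nearest peak was 512 bp downstream, had 5 lists at another TSS.

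Unbound and bound CpG-rich promoters were close in GC content and in number of CpG, and differed in observed over expected CpG. Median GC content was 65.7% in members and 65.1% in bound promoters, and the median number of CpG per window was 82 and 84. Observed over expected CpG had medians of 0.774 and 0.808 and was lower in members in 20 of 22 autosomes. The share without a peak fell along this ratio from 20.5% between 0.6 and 0.7 to 13.6%, 11.3% and 10.6% in the next bins of 0.1, and was 10.0% over 1.0. Among promoters with the same GC minimum but a ratio from 0.4 to 0.6 it was 44.6%. Genes with an unbound promoter had a median of 5 annotated transcripts against 8, the lower in 22 of 22 autosomes, and a median length of 40.6 kb against 35.8 kb.

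Some letters bound by general activators of CpG island promoters were rarer in unbound than in bound CpG-rich promoters, and others were about as common. The window was searched on both strands for 9 exact motifs, none of which contains another. The ETS core CCGGAAG was in 14.9% of members (interval 13.4 to 16.7) and 31.6% of bound CpG-rich promoters (30.7 to 32.4), the NRF1 core GCGCATGC in 3.72% and 8.98%, and the YY1 site AAGATGGC in 3.21% and 9.29%. Each of these was lower in members in 22 of 22 autosomes. The CREB site TGACGTCA was in 2.63% and 4.89% (lower in 15 autosomes) and ACTACA, part of the THAP11 and ZNF143 site, in 14.5% and 20.6% (lower in 19). The E-box CACGTG was in 19.1% and 21.6% (lower in 17), a smaller gap. The GC box GGGCGG of SP and KLF proteins was in 95.5% and 96.1% (lower in 11) and the NF-Y core CCAAT in 57.4% and 59.4% (lower in 12). The TATA box TATAAA was in 15.7% and 13.6% (higher in 14). Over all 20033 coding promoters the shares were 22.4% for the ETS core, 6.25% for NRF1, 7.29% for YY1, 3.51% for the CREB site, 23.04% for ACTACA, 76.9% for the GC box, 63.8% for CCAAT, 18.3% for the E-box and 23.3% for TATA. At least 1 of the ETS, NRF1, YY1 and CREB letters was in 22.2% of members, in 45.6% of bound CpG-rich promoters and in 52.8% of those with 31 or more lists. Promoters with a peak of 1 list had 17.3%.

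**Figure D4:**
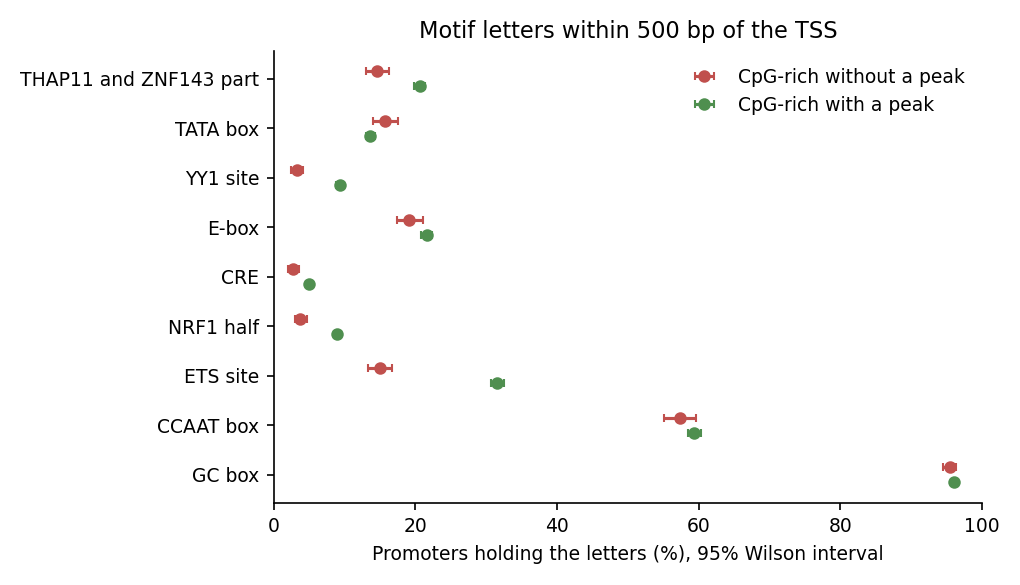
Percent of promoters that hold each of 9 motifs within 500 bp of the TSS on either strand (horizontal axis), for CpG-rich promoters without and with a peak. Points are shares with 95% Wilson intervals; the ETS core stands at 14.9% and 31.6%, and the GC box at 95.5% and 96.1%.

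Unbound promoters shared their island with an opposite gene less often. A canonical TSS of a coding or lncRNA gene on the other strand lay within 1000 bp upstream of 212 members (12.1%) and of 28.6% of bound CpG-rich promoters, and the share was lower in members in 22 of 22 autosomes. Among promoters without such a neighbour, the ETS core was in 14.6% of members and 28.3% of bound ones, NRF1 in 3.59% and 8.60% and YY1 in 3.32% and 8.48%. The CREB site was in 2.87% and 4.51%. Each of these stayed lower in members, and the part of paired promoters in the motif contrast was not tested.

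The 381 CpG-rich promoters with a peak of exactly 1 list had some values near those of the members and others apart. Their medians were 0.786 for observed over expected CpG and 5 annotated transcripts, 10.5% had an opposite TSS, and the ETS core was in 10.8% and the YY1 site in 1.84%, both below the members. Of those with another annotated TSS, 45.9% had a peak there, against 25.9% of members. Under 10% of words were single-copy in 0.525%, against 4.98% of members, and 4.72% lay on X, against 7.90%. The list that most often stood alone was ZFP91 (65 of 381), followed by ZNF865 (45), ZBTB12 (43), SALL1 (38) and POU2F1 (31).

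Lists that the criterion did not use also had almost no peak at these promoters. Only DLX5, a homeobox gene of bone and forebrain, had a ZNF431 peak (chr7:97024331-97025331), and PLAAT5 had an EP300 peak (chr11:63490667-63491667). These 2 members are 0.115% of all. The GPBP1L1, TSC22D2, TUT4 and ZZZ3 lists had 0, which allows a share of up to 0.172% of members each. CpG-poor unbound promoters had 4 of 4676 with a peak of the 6 lists (0.0855%), and bound CpG-rich promoters 69.5%. The GPBP1L1 list holds only 73 peaks. The share per list differed between members and CpG-poor unbound promoters by a mean of 0.00483 percentage points over the 6 lists (SD 0.0366), with members higher in 2 lists, lower in 2 and equal at 0 in 2. These differences rest on 0 to 2 promoters per list and group. A two-sided exact sign-flip permutation test over them could not give a p under 0.125, so none is drawn on, and whether the groups differ in these lists was not detectable here.

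Chromosome X had a higher share of unbound promoters than any autosome. On X 138 of 447 CpG-rich promoters were unbound (30.9%, interval 26.8 to 35.3), against 12.7% of 12504 on the autosomes, where the share ran from 6.98% on chromosome 20 to 22.05% on chromosome 21 (interval 15.7 to 30.02, which overlaps that of X). CpG-rich promoters of X also had fewer lists where they were bound, with a median of 9 against 38, and 8 of 447 had 31 or more (1.79% against 54.5%). Restricted to promoters of which at least 90% of 50-base words occur once in the genome, the unbound shares were 26.7% and 12.0%. The number of copies of X and the reads behind its peaks were not analysed here, and their part in the unbound share of X was not tested. Of all members 7.90% lay on X, near the 7.49% of CpG-poor unbound promoters. On chromosome Y 20 of 25 were unbound. Of these, 10 are copies on its pseudoautosomal parts and others are RBMY1 genes, both described below.

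**Figure D5:**
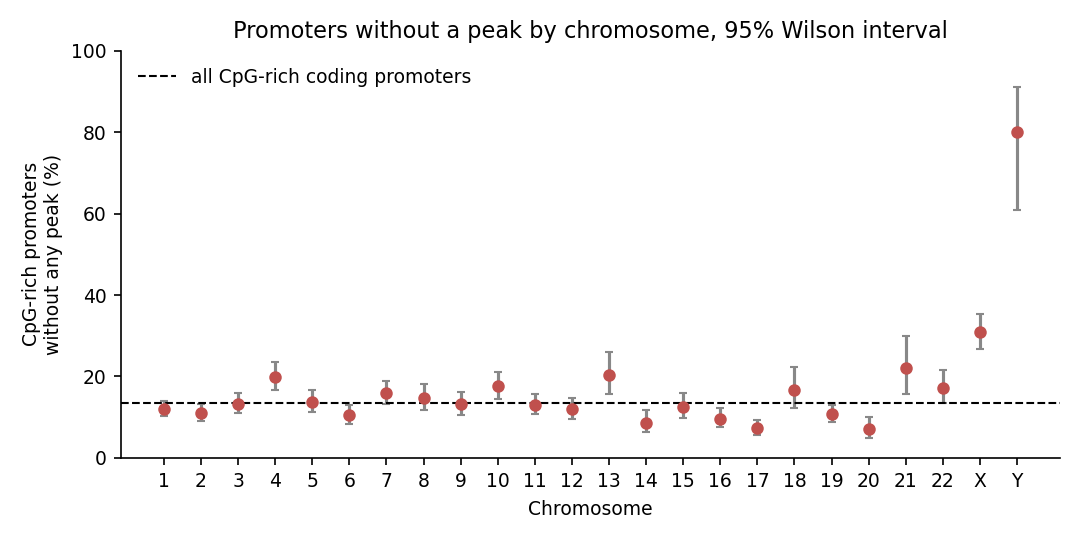
Percent of CpG-rich coding promoters without any peak (vertical axis) on each chromosome (horizontal axis), with 95% Wilson intervals and a dashed line at the share over all, 13.5%. X stands at 30.9% and Y at 80.0%, and the autosomes run from 6.98% to 22.05%. Of the unbound promoters on Y, 10 are copies on its pseudoautosomal parts.

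Repeated sequence moved with the absence of peaks. In 87 members (4.98%) fewer than 10% of the 50-base words of the window occurred once in the genome, and in 2 of the 11230 bound CpG-rich promoters. Among CpG-poor unbound promoters it was 268 of 4676 (5.73%). The family of multicopy genes was put together by symbol, so it also holds genes such as TSPYL5, whose words were all single-copy. It had 38 unbound promoters of 68 (55.9%). Of the 38, 27 were of the kind with fewer than 10% single-copy words, such as RBMY1F with 5.25%. Among promoters of this family with at least 90% single-copy words the share was 14.3%, against 12.5% of all such CpG-rich promoters. This family share leaves out at least those 27 members and is given without an interval. Replication-dependent histones had 12 of 40, and 6 of the 12 were of this kind, namely H4C14, H3C14, H2AC18, H2AC19, H3C15 and H4C15, which follow each other on chromosome 1. The runs TP53TG3D to TP53TG3F on chromosome 16 and PRR20A to PRR20E on chromosome 13 had 0 to 14.8% and 0 to 2.63% of their words single-copy (TP53TG3D and PRR20A had the highest values). How the alignments treated reads from such copies is not given in the sources used here, and its part in these results was not tested. No homeobox, synapse or germline member was of this kind. A further 10 members are annotated copies on the pseudoautosomal parts of Y, where all lists together had 0 peaks in the first part against 969 in its twin on X. On X, 9 of the 10 promoters had a peak, and SHOX, a homeobox gene of bone growth, was unbound on both. The 36045632 bp of VAMP7, the farthest nearest peak, belongs to such a copy. Of members outside these copies, NAP1L3 (2564385 bp), SLITRK2 (2057981 bp) and DCAF12L1 (1867138 bp) on X and PCDH11Y (1908760 bp) on Y were among the farthest.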

How the data were processed

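Peak lists of 127 DAPs in HepG2 were analysed, with no replicate list of any DAP. Of these lists 121 are preferred, 106 of TFs and 15 of other DAPs. The authors ran the ENCODE pipeline themselves and deposited its optimal calls, made on hg38 against input libraries (24 of the 151 samples). Which aligner and caller were used is not given in the sources used here. The deposited score of each peak runs from 540 to 1000. The deposited signal is relative to the input of its own list and was not compared between lists. The deposited q column was treated as a score and not used. Status as preferred or TF was taken from the study's list of data sets.

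Canonical TSSs of protein-coding genes were taken from GENCODE 44, and GC share, CpG ratio and motifs were computed on hg38, whose chromosomes hold every peak. A peak counted when it overlapped the 1001 bp window by at least 1 bp. Single-copy content is the share of 50-base words that occur once on the 24 chromosomes. Families, gene lists and members were chosen with earlier results of these data known, and family patterns that caught FOXL2NB and RPS6K genes by symbol were narrowed after values were seen. Genes were named by rules: the members of each family with most CpG or farthest from a peak, the members closest to and farthest from a peak or with the highest CpG ratio, the members of the gene lists, members with a peak of a non-preferred list, and runs of at least 5 neighbouring members. Members at another TSS, in shorter runs and in the histone and protocadherin clusters were added after their values were seen. Some items that these rules pick are not reported here. Promoters are not replicates, so shares are given with Wilson intervals (counting error only) and the number of autosomes in the same direction, and the one planned test, an exact sign-flip permutation test over the 6 non-preferred lists, was void, since lists at 0 in both groups left it no p under 0.05. Calculations were tested on simulated data. Software was numpy 2.4.6, numba 0.67.0, pandas 2.3.3 and scipy 1.17.1 under Python 3.11.15.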

Additional observations from a re-analysis of the deposited data

How the results depend on the processing

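The 1746 unbound promoters became 1214 to 2314 under 13 alternatives, always within 1.5 times. Their share of CpG-rich promoters was 15.4% with 250 bp on either side, 11.9% with 1000 bp, 12.8% with stricter CpG limits (0.55 and 0.65), 17.8% with scores of 830 or more, 14.5% with the central 100 bp of peaks, 14.9% without the 5 longest lists, 10.96% when no annotated TSS of the gene may have a peak, 12.7% on autosomes and 12.5% where at least 90% of words are single-copy. The median distance was 10892 bp with 250 bp, 16713.5 bp with 1000 bp, 17309.5 bp with the stricter score, 10667 bp with central 100 bp, 15644 bp without the 5 longest lists, 17716.5 bp with all TSSs and 11053.5 bp on autosomes. Removing the copies on the pseudoautosomal parts of Y, an alternative chosen after seeing the data, gave 13.4% and 11939 bp.

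Under each alternative, 22 to 24 of the 24 families stayed on the same side of the share over all CpG-rich promoters, and those that changed side were solute carriers and other ZNF genes. Of the 312 pairs of a family and an alternative, 16 gave a share outside the family's interval, and 4 moved it by over 1.5 times. These were the multicopy family (55.9% to 14.3% with at least 90% single-copy words), T-box genes (50% to 25% with all TSSs), histones (30% to 50% with stricter CpG limits) and solute carriers (13.2% to 20.2% with the stricter score). Of 120 named members 87 remained with 1000 bp windows, 99 with all TSSs and 120 with the stricter score. Members with a peak of a non-preferred list were 0% with the stricter score and 0.458% within 1000 bp. The mean difference over the 6 lists was -0.112 points against promoters with 1 list, 0 with the stricter score (no member or CpG-poor promoter with a peak), and between -0.00565 and 0.0144 when a list was left out, below 0 without EP300 or ZNF431. These values rest on a few promoters, and no test over them could pass 0.05. Causes of these shifts were not tested.

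No paired analysis was possible because each DAP has 1 list. Depth is unknown, so a missing peak was not read as missing binding.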

Other observations

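Outside the 24 families, gene symbols with a shared root were counted after their values were seen, with no test, beside 13.5% over all CpG-rich coding promoters and 30.9% on X. PNMA genes, which derive from the Gag gene of retrotransposons, had 6 unbound promoters of 8 (PNMA2, PNMA3, PNMA5, PNMA6A, PNMA6E and PNMA8C), and RTL genes of like origin had 4 of 6 (RTL5, RTL6, RTL8A and RTL8B). Of these members 4 PNMA and 3 RTL genes lay on X. PRDM genes, which pair a PR domain with zinc fingers, had 6 of 12, with PRDM12, PRDM13 and PRDM14 among them. Symbols beginning with ST and a number had 9 of 23, of which all but ST14 are sialyltransferases. PDE genes had 7 of 15, mostly phosphodiesterases of cyclic nucleotides (PDE4DIP is not one). By comparison RNF genes, largely ubiquitin ligases, had 5 of 68 and RAB genes 5 of 62.

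Unbound CpG-rich promoters had another one as a neighbour more often than bound ones did. A neighbouring coding gene was itself a member for 635 of the 1746 (36.4%), against 14.02% of bound CpG-rich and 15.8% of CpG-poor unbound promoters, with no test. A neighbour without a peak, whatever its CpG content, was found for 65.6%, 37.1% and 74.9%. The other 1111 members had none of their kind on either side, 408 lay in pairs and 227 in runs of 3 to 7. The runs of 5 included TM6SF1, HDGFL3, BNC1, SH3GL3 and ADAMTSL3 on chromosome 15, and SCUBE1, MPPED1, EFCAB6, SULT4A1 and PNPLA5 on chromosome 22. A run of 4 held FGF19, FGF4, FGF3 and ANO1 on chromosome 11.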
